A study of Mus musculus with 22 samples.

Results

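The genes described here encode Wnt, Fgf, Bmp and Tgfb ligands, their receptors, secreted Wnt antagonists and the Smad proteins that carry Bmp and Tgfb signals. They were taken by name from the gene symbols of the array's platform annotation, using the stems Wnt, Fzd, Sfrp, Dkk, Fgf, Fgfr, Bmp, Bmpr, Smad and Tgfb and leaving a pair of genes out. The name pattern itself uses no measured value, though it was set with earlier results of these data known. It gave 69 genes, each with 1 probe, among the 10500 probes of the array, of which 9378 carried 1 gene symbol. The name pattern also caught 3 genes that are no ligand, receptor or Smad: Bmp1, a protease of the extracellular matrix, and Fgfr1op2 and Tgfb1i1, named after a receptor and a ligand.

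Wnt ligands bind Frizzled receptors, and Sfrp and Dkk proteins are secreted inhibitors that bind the ligands or their co-receptors. Fgf ligands act through the receptor tyrosine kinases Fgfr1 to Fgfr4, while the Fgf homologous factors Fgf11 to Fgf14 stay inside the cell and do not act as ligands. Bmp and Tgfb ligands bind receptor serine kinases that phosphorylate Smad proteins. In the closing cranial neural tube these pathways are known for dorsoventral and anteroposterior patterning, with Wnt1 and Wnt7a in the neural tube, Fgf15 in the forebrain and midbrain, and Bmp ligands at the dorsal midline and surface ectoderm.

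Amplified RNA from the dissected anterior neural tube of mouse embryos was hybridised to 22 one-colour CodeLink arrays. The dams of every group were Folr2-/- and lacked this folate receptor, and there was no wild-type group. Dams were injected intraperitoneally at GD7:12 and GD8:12 (gestational day and hour) with sodium arsenate at a dose of 9.6 mg As/kg, or with water in the control arm. Embryos taken 3 h after the later injection (GD8:15) gave 4 control and 4 arsenic arrays, those taken after 12 h (GD9:00) gave 4 and 3, and those taken after 24 h (GD9:12) gave 3 and 4. Since no label ties arrays to separate dams, p-values here reflect only how these samples varied, which may be technical. In whole tissue, fewer cells of a type and less RNA per cell cannot be told apart.

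Of the markers of neural tube and neural progenitors on the array, 12 of 12 passed the filter on dim probes. Markers of other tissues passed too: neural crest 6 of 6, blood 5 of 5, endoderm 6 of 6 and surface ectoderm 5 of 6. For paraxial and head mesoderm it was 6 of 8, for heart and muscle 9 of 13 and for endothelium 4 of 6. The Folr2 probe lay among the lowest 2.93% of probes by mean intensity. The deposited values had been scaled within each stage, to an array mean near 600 (GD8:15), 500 (GD9:00) or 1000 (GD9:12). The arrays were put on one scale by quantile normalisation, and values below are log2 intensities on that scale. The first digits of a code in the sample titles split the arrays into 4 series, A to D, of unstated meaning. All GD9:00 arrays and all arsenic GD9:12 arrays were of series C, and all arsenic GD8:15 arrays of series D. The control GD8:15 arrays were 1 of A, 1 of C and 2 of D. Of the control GD9:12 arrays replicate 1 was of series B and the other 2 of series C. On some arrays the signal dipped over runs of neighbouring probe numbers (a running median over 51 probes below -0.2). Such low runs covered 3.47% to 15.7% of the probes on the control GD9:00 arrays and at most 0.476% on the arsenic GD9:00 arrays. They covered 1.83% to 10.1% on the arsenic GD8:15 arrays and at most 3.52% on the control GD8:15 arrays. The GD9:12 arrays had at most 3.56% in the control arm and 0.648% in the arsenic arm. Xist, expressed from the inactive X of females, read 7.86 to 9.06 on the arsenic arrays and 7.02 to 7.10 on the controls at GD8:15. At GD9:00 it read 9.77 to 10.35 against 7.10 to 8.71. The Y-linked gene Eif2s3y read lower on the arsenic arrays at GD8:15 (7.11 to 7.30 against 7.66 to 7.79) and overlapped at GD9:00 (7.01 to 7.18 against 7.06 to 7.89). The other Y-linked genes read the other way at GD9:00, where the mean of Kdm5d was 10.91 on the arsenic arrays and 10.00 on the controls, and that of Uty 7.42 and 7.12. Within GD9:12 Xist read 11.34 on control replicate 1 and 6.88 to 7.15 on the other arrays of both arms. Eif2s3y read 7.06 on that replicate and 7.46 to 8.14 on the others. The part of embryo sex in the arsenic and stage differences was not tested.

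A gene was tested when its probe was measured on 2 or more arrays per group and it was not among the 25% of probes with the lowest means. Of the 69 genes 44 passed, and the 25 that did not (36.2%, against 25.4% of all probes) are known here only as dim or unmeasured. All 3 Bmp receptors (Bmpr1a, Bmpr1b, Bmpr2) and all 3 Tgfb ligands passed, as did 6 of 7 Bmp ligands, 6 of 8 Frizzled receptors and 8 of 12 Wnt ligands. Of the Fgf ligands 7 of 13 passed, of the secreted Wnt antagonists 4 of 7, of the Smad genes 2 of 5, of the Fgf receptors 2 of 4, and of the Fgf homologous factors 1 of 4 (Fgf11). Genes that were too dim included Wnt5a, Fzd6, Fzd8, Dkk1, Fgf17, Fgfr2, Bmp4, Smad2, Smad3 and Smad5. A dim probe does not show that the gene was silent in the tissue.

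Sfrp2, a secreted Wnt antagonist, was left out for another reason. The deposited table held a placeholder of 1 in its place on 7 of the 8 GD8:15 arrays and a value on every later array, between 7.16 and 7.81. The 7 arrays without a value were all those of title code series A and D, and the 1 GD8:15 array of series C had 7.34. The same pattern, missing on the 7 arrays of series A and D and present on the 15 arrays of B and C, was found for 13 probes in all. The missing Sfrp2 values thus followed the code series, with which stage overlaps, and give no stage difference.

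The first comparison was between stages in the control arm, that is, how these genes moved over the hours of neural tube closure without arsenic. A gene is called here where limma gave an adjusted p under 0.05 (Benjamini-Hochberg over all 7833 tested probes). From GD8:15 to GD9:00 the Fgf receptor Fgfr1 and the ligand Fgf15 rose, and Wnt2b, Bmp8b, Bmp6, Tgfb1 and Smad6 fell. These 7 of 44 genes are 15.9%, where 15% of all tested probes were called (8.16% higher, 6.83% lower). From GD9:00 to GD9:12 Wnt4 rose and Fzd2, Fzd3, Fgf15, Fgfr1 and Bmp7 fell, which is 6 of 44 (13.6%) where 11.3% of all probes were called (3.83% higher, 7.44% lower). From GD8:15 to GD9:12 Fgf10 and Sfrp1 rose and Fzd2, Sfrp5 and Bmp7 fell, 5 of 44 (11.4%) where 7.71% of all probes were called (3.77% higher, 3.94% lower). The share of these genes called was thus near that of all probes in each comparison. In every called difference the arrays of the 2 stages did not overlap, which choosing genes by a low p in the same arrays favours. Of the 44 genes, called or not, 2 lay higher and 7 lower without overlap in the first comparison. In the second 7 lay higher and 9 lower, and in the third 9 and 11. Of all probes 22.2%, 30.1% and 31.2% did not overlap in these 3 comparisons.

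**Figure D1:**
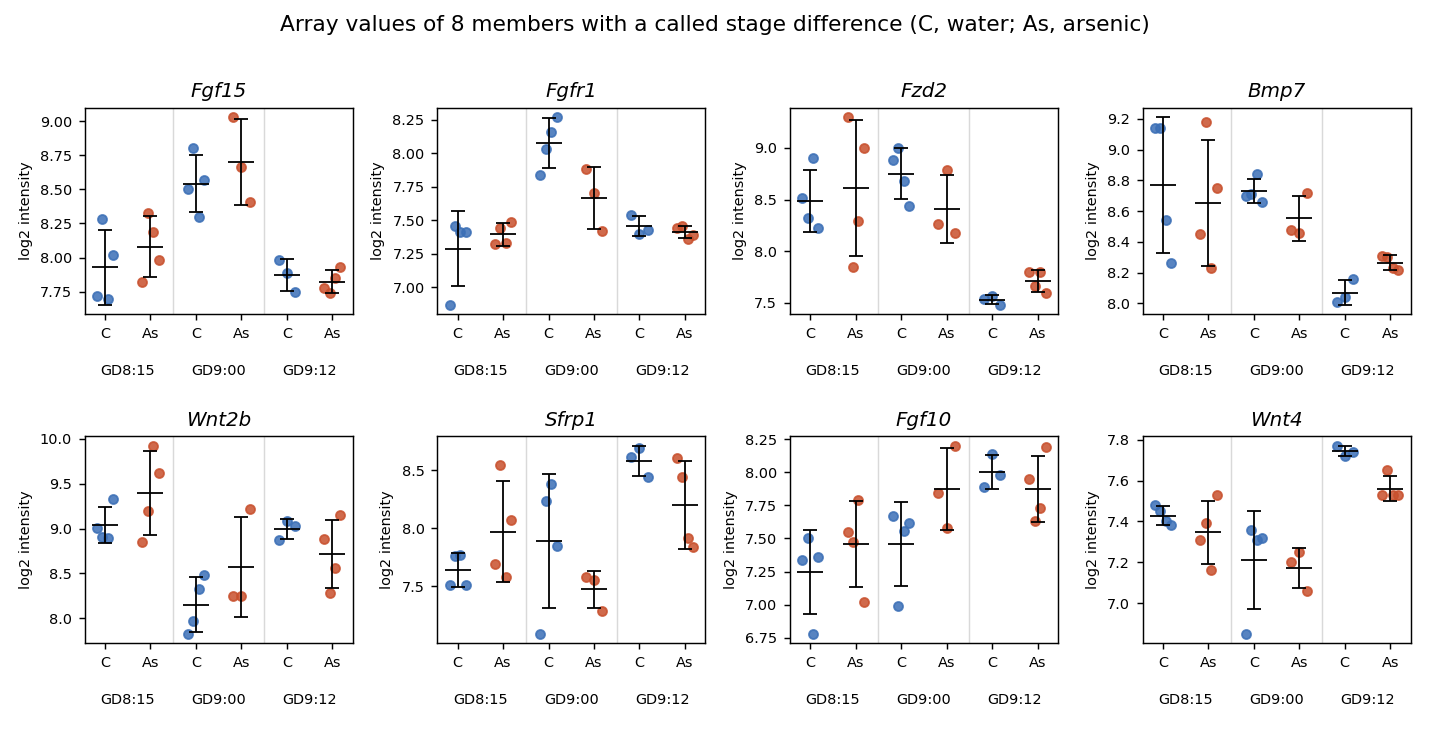
Quantile-normalised log2 intensity on every array for 8 genes with a called stage difference, by stage and arm (C, water; As, arsenic); points are arrays, bars the mean and SD of 3 or 4 arrays, and axes differ between genes. Fgf15 is highest at GD9:00 in both arms, Fgfr1 is highest on the control GD9:00 arrays (7.84 to 8.27), and Fzd2 is lowest at GD9:12 (7.48 to 7.80 over both arms).

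Among the Wnt ligands, Wnt2b and Wnt4 had called differences. Wnt2b, a ligand of the canonical pathway, read 9.01, 8.91, 8.90 and 9.33 on the control GD8:15 arrays, 7.83, 7.97, 8.33 and 8.48 at GD9:00, then 8.87, 9.08 and 9.03 at GD9:12. The GD9:00 arrays lay below both other stages without overlap. Wnt2b fell by 0.88 ± 0.25 (SE), or 1.84-fold, into GD9:00 (limma adjusted p = 0.0237), and the later difference of 0.84 ± 0.27 did not pass (adjusted p = 0.0511). The fall was no longer called without control GD8:15 replicate 1 or 4 or control GD9:00 replicate 1 or 2 (limma adjusted p up to 0.0783).

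Wnt4, a ligand known from kidney, adrenal and gonad and from the neural tube, read 7.48, 7.45, 7.40 and 7.38 at GD8:15, 6.85, 7.36, 7.31 and 7.32 at GD9:00, then 7.77, 7.72 and 7.74 at GD9:12. The last stage lay above all other control arrays. Wnt4 rose by 0.54 ± 0.11, or 1.45-fold, from GD9:00 to GD9:12 (limma adjusted p = 0.00448), and stayed called whichever array was left out. The value of 6.85 lay in a low run, and with low runs masked the rise was 0.42 (adjusted p = 0.00461). Wnt3, a ligand needed early for the body axis, had a mean of 10.27 over all arrays. Wnt3, Wnt1, Wnt7a, Wnt10a, Wnt10b and Wnt11 had no called stage difference in either arm.

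Of the 69 genes, 47 had an entry in the RefSeq promoter table (assembly GRCm38.p6), with 62 start sites in all. The 250 bases upstream of the start are printed for Wnt2b and Wnt4 because these are the Wnt ligands with a called stage difference. Capitals mark GGCGCC, a GC-rich core that Smad proteins can bind, which reads the same on both strands. It occurs 2 times in each window. The Wnt2b window is chr3:104961710-104961959 on the minus strand and the Wnt4 window chr4:137277385-137277634 on the plus strand, both written 5′ to 3′ in the direction of the gene.
Wnt2b: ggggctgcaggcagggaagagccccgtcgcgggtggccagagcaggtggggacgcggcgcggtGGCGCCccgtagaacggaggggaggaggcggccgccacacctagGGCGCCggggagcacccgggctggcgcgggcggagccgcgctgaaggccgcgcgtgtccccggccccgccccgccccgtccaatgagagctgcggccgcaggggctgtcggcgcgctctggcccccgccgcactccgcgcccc
Wnt4: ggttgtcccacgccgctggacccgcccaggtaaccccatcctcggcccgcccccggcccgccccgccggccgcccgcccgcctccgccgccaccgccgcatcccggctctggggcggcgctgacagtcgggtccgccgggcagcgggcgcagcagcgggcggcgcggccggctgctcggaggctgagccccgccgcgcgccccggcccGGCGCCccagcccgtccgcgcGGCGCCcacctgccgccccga
Over all 62 windows, 13 held GGCGCC (21%), against 9.59% of the 32851 windows of the table. CTTTGAT or CTTTGTT, cores bound by the TCF and LEF factors that carry Wnt signals, searched on both strands, were in 8 windows (12.9%) against 8.06%. Neither of the printed windows held a TCF/LEF core. These shares are descriptions: several windows belong to 1 gene, and base composition was not matched.

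The Frizzled receptors Fzd2 and Fzd3 fell late in the control arm. Fzd2, which transduces both canonical and non-canonical Wnt signals, read 8.51, 8.32, 8.90 and 8.22 at GD8:15, 8.88, 9.00, 8.68 and 8.44 at GD9:00, then 7.54, 7.57 and 7.48 at GD9:12. All 3 last arrays lay below every earlier control array. The fall from GD9:00 was 1.22 on the log2 scale ± 0.26, or 2.33-fold (limma adjusted p = 0.00607), the largest called difference of these genes in the control arm. It stayed called with any array left out and with the code series as a block (adjusted p = 0.0269). From GD8:15 to GD9:12 the difference was -0.96 ± 0.26 (adjusted p = 0.0296), and this call ended with the series as a block (adjusted p = 0.167), without control GD8:15 replicate 1 or 3, and without any 1 control GD9:12 array (adjusted p up to 0.0996).

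Fzd3, a receptor needed for axon guidance and planar polarity in the neural tube, read 8.05, 8.24, 8.10 and 7.93 at GD9:00 and 7.54, 7.48 and 7.39 at GD9:12. These arrays did not overlap, and Fzd3 fell by 0.61 ± 0.18 (limma adjusted p = 0.0345). Its value on control GD9:00 replicate 2 lay in a low run, and with low runs masked the difference was -0.56 (adjusted p = 0.0648). The call also ended without control GD9:00 replicate 1, 2 or 3 or any 1 control GD9:12 array (adjusted p up to 0.127). Fzd1, Fzd4, Fzd7 and Fzd9 had no called stage difference.

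Of the 4 tested secreted Wnt antagonists, Sfrp1 rose and Sfrp5 fell. Sfrp1 read 7.51, 7.76, 7.77 and 7.51 at GD8:15, 7.09, 8.24, 8.38 and 7.85 at GD9:00, then 8.62, 8.69 and 8.44 at GD9:12. The middle stage was widely spread, with its value of 7.09 (replicate 1) in a low run, and the last lay above all other control arrays. Sfrp1 rose by 0.95 ± 0.27, or 1.93-fold, from GD8:15 to GD9:12 (limma adjusted p = 0.0374). Sfrp5 read 7.55, 7.32, 7.50 and 7.54 at GD8:15 and 7.27, 7.13 and 7.17 at GD9:12 and fell by 0.28 ± 0.079 (adjusted p = 0.0333). Each call ended when any of several single arrays was left out (adjusted p up to 0.135 for Sfrp1 and 0.149 for Sfrp5). For Sfrp1 this held for each of the 7 arrays compared, and for Sfrp5 for control GD8:15 replicates 1, 3 and 4 and control GD9:12 replicates 2 and 3. Sfrp4 and Dkk3 had no called stage difference.

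In the Fgf family, Fgf15 and Fgfr1 rose into GD9:00 and fell after it. Fgf15, the mouse counterpart of human FGF19, read 7.72, 8.28, 7.70 and 8.02 on the control GD8:15 arrays, 8.50, 8.80, 8.30 and 8.57 at GD9:00, then 7.98, 7.89 and 7.75 at GD9:12. The GD9:00 arrays lay above both other stages, by a margin of 8.30 over 8.28 in the first case. Fgf15 rose by 0.61 ± 0.15, or 1.52-fold (limma adjusted p = 0.013), and fell by 0.67 ± 0.16 (adjusted p = 0.0142). The rise stayed called with any array left out (adjusted p up to 0.0489). It was 0.38 and not called with only the GD8:15 arrays of code series D (adjusted p = 0.163), 0.34 and not called with array weights (adjusted p = 0.0994), and 0.84 and not called with the series as a block (adjusted p = 0.155). The fall was not called without control GD9:12 replicate 3 (adjusted p = 0.0722).

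Fgfr1, the main Fgf receptor of the early embryo, had the lowest p of all 44 genes in the step into GD9:00. It read 6.87, 7.46, 7.41 and 7.41 at GD8:15, 7.84, 8.03, 8.16 and 8.27 at GD9:00, then 7.54, 7.40 and 7.43 at GD9:12. The GD9:00 arrays lay above all others. Fgfr1 rose by 0.79 ± 0.13, or 1.73-fold (limma adjusted p = 0.000642), and then fell by 0.62 ± 0.14 (adjusted p = 0.00697). Both calls held with any array left out, and the rise was 0.66 without control GD8:15 replicate 1, the lowest array. With the GD8:15 arrays of series D alone it was 0.64 (adjusted p = 0.0069), and with the series as a block 0.67 and not called (adjusted p = 0.105). The probes of Fgf15 and Fgfr1 lay in no low run on any array, though that of Fgf15 lay beside one on control GD9:00 replicate 1.

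Fgf10, a mesenchymal ligand of limb and lung buds, read 7.34, 7.50, 6.78 and 7.36 at GD8:15 and 7.89, 8.14 and 7.98 at GD9:12. It rose by 0.76 ± 0.21, or 1.70-fold (limma adjusted p = 0.0335), and the call ended without control GD8:15 replicate 1, 3 or 4 or any 1 control GD9:12 array (adjusted p up to 0.142). The value of 6.78, on control GD8:15 replicate 3, lay beside a low run, and without that array the rise was 0.6. Fgf5, a gene of the epiblast with a mean of 8.57 over all arrays, had -0.70 ± 0.30 from GD8:15 to GD9:00 and was not called (adjusted p = 0.115). Fgf1, Fgf3, Fgf9, Fgf16, Fgf11 and Fgfr3 were not called in any stage comparison.

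Among the Bmp ligands, Bmp7 fell late and Bmp6 and Bmp8b fell early. Bmp7, made in the dorsal ectoderm and roof plate, read 9.14, 9.14, 8.54 and 8.26 at GD8:15, 8.70, 8.71, 8.84 and 8.66 at GD9:00, then 8.01, 8.04 and 8.16 at GD9:12. The last stage lay below all other control arrays. Bmp7 fell by 0.66 ± 0.20, or 1.58-fold, from GD9:00 (limma adjusted p = 0.0401) and by 0.70 ± 0.20 from GD8:15 (adjusted p = 0.0374). With low runs masked the first difference was -0.67 and not called (adjusted p = 0.0513), and with trended and robust moderation neither Bmp7 fall was called (adjusted p = 0.0647 and 0.0627). The first of these calls also ended when any 1 of the 7 arrays compared was left out, or arsenic GD9:12 replicate 3, which shares the estimate of spread (adjusted p up to 0.117). The second ended without control GD8:15 replicate 1 or 2 or any 1 control GD9:12 array (adjusted p up to 0.121).

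Bmp8b, a ligand known from germ cell formation, read 8.37, 8.45, 8.05 and 9.53 at GD8:15 and 7.84, 7.78, 7.79 and 7.01 at GD9:00. It fell by 1.00 ± 0.31, or 1.99-fold (limma adjusted p = 0.0359). Its lowest value, on control GD9:00 replicate 4, lay in a low run, and with low runs masked the difference was -0.80 and not called (adjusted p = 0.0875). The call also ended without control GD8:15 replicate 1, 2 or 4 or control GD9:00 replicate 2 or 4 (adjusted p up to 0.134). Bmp6 read 7.48, 7.47, 7.42 and 7.37 at GD8:15 and 6.94, 7.25, 7.18 and 7.16 at GD9:00. It fell by 0.30 ± 0.095 (adjusted p = 0.0399), a call lost with any 1 of the 8 arrays compared left out except control GD9:00 replicate 2 (adjusted p up to 0.11).

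Tgfb1, a ligand of many tissues, and Smad6, an inhibitory Smad, fell by small amounts. Tgfb1 read 7.45, 7.39, 7.40 and 7.55 at GD8:15 and 7.21, 7.07, 7.13 and 7.16 at GD9:00, a fall of 0.30 ± 0.074 (limma adjusted p = 0.0112) that stayed called with any array left out. Smad6 read 7.58, 7.44, 7.49 and 7.47 at GD8:15 and 7.10, 7.19, 7.21 and 7.28 at GD9:00, a fall of 0.30 ± 0.099 (adjusted p = 0.047). The Smad6 call was lost under 19 of the 22 omissions of an array, including any 1 of the 8 arrays compared (adjusted p up to 0.127). The probes of Smad6, Bmp6 and Tgfb1 lay at the 32.5, 32.6 and 33.2 percentiles of mean intensity, little above the filter. Bmpr1a, Bmpr1b, Bmpr2, Smad4, Tgfb2 and Tgfb3 had no called stage difference.

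These stage differences depend on the common scale. Under the authors' own scaling the median of all probes moved by -0.49 from GD8:15 to GD9:00 and by 0.79 from GD9:00 to GD9:12 in the control arm. There the late differences of Fgf15 (0.03), Fgfr1 (0.02), Bmp7 (0.06) and Fzd3 (0.03) no longer lay below 0, whereas Fzd2 was still lower (-0.61) and Wnt4 higher (1.33). The first step had 0.33 for Fgfr1 (limma adjusted p = 0.235) and 0.26 for Fgf15 (adjusted p = 0.353) under that scaling. The differences between GD8:15 and GD9:12 of Fzd2 (-0.74), Bmp7 (-0.29) and Sfrp5 (-0.17) were not called under it (adjusted p = 0.0522, 0.402 and 0.737), nor was Bmp8a in the arsenic arm (-0.28, adjusted p = 0.555). With the code series as a block, 0 of these genes were called from GD8:15 to GD9:00 or to GD9:12, where 35 and 47 of all probes were called, and the 4 called from GD9:00 to GD9:12 were Fgf15, Wnt4, Fgfr1 and Fzd2. Stage and series cannot be told apart for most GD8:15 arrays.

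Marker lists of other tissues moved with stage as well. Over the control arrays the mean level of the heart and muscle list was 8.58 to 8.87 at GD8:15, 8.06 to 8.75 at GD9:00 and 7.78 to 7.92 at GD9:12, and 5 of its 9 tested genes fell from GD8:15 to GD9:12. That of the blood list was 8.29 to 8.76, 7.41 to 8.42 and 9.18 to 9.41, and 3 of 5 genes rose from GD9:00 to GD9:12. The paraxial and head mesoderm list, 2 of whose 6 genes fell from GD8:15 to GD9:12, ran from 7.76 to 8.41 at GD8:15 and from 7.58 to 7.62 at GD9:12. Of the surface ectoderm list 2 of 5 genes fell from GD9:00 to GD9:12, and its mean went from 7.65 to 7.99 down to 7.38 to 7.51. Of the neural list 3 of 12 genes rose and 1 fell from GD8:15 to GD9:12, and its mean went from 8.95 to 9.06 up to 9.47 to 9.51. The genes counted as rising or falling in these lists were called. Of all probes 3.77% were called higher and 3.94% lower from GD8:15 to GD9:12, and 3.83% and 7.44% from GD9:00 to GD9:12. The part of the list shifts in the stage differences above was not tested.

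The arsenic arm gives the same stages in arrays it does not share with the control arm. Fgf15 was called there too. It read 7.82, 8.33, 8.19 and 7.98 at GD8:15, 9.03, 8.66 and 8.41 at GD9:00, then 7.78, 7.74, 7.85 and 7.93 at GD9:12. The GD9:00 arrays again lay above both other stages. Fgf15 rose by 0.62 ± 0.16 (limma adjusted p = 0.036) and fell by 0.88 ± 0.16, or 1.84-fold (adjusted p = 0.00549). It was the 1 of 44 genes called in each of these steps (2.27%), where 4.21% and 3.88% of all probes were called. Under the authors' scaling the differences were 0.23 and -0.33, and neither was called (adjusted p = 0.628 and 0.406). The rise was also lost with trended and robust moderation (adjusted p = 0.0643) and with the series as a block (adjusted p = 0.356). The fall stayed called with any array left out, and the rise did not without arsenic GD8:15 replicate 1 or 4 or arsenic GD9:00 replicate 1 or 2 (adjusted p up to 0.217).

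From GD8:15 to GD9:12 the arsenic arm had called falls of Fzd2 and Bmp8a, 2 of 44 (4.55%) where 13.8% of all probes were called. Fzd2 read 9.30, 7.85, 8.29 and 9.00 at GD8:15, 8.26, 8.79 and 8.18 at GD9:00, then 7.80, 7.66, 7.80 and 7.59 at GD9:12. The last stage lay below both others. Fzd2 fell by 0.90 ± 0.24 (limma adjusted p = 0.0191), a call lost without arsenic GD8:15 replicate 1 or 4 or arsenic GD9:12 replicate 2 (adjusted p up to 0.064). Bmp8a, a ligand of the same subgroup as Bmp8b, read 7.93, 7.87, 8.56 and 8.02 at GD8:15 and 7.76, 7.47, 7.62 and 7.81 at GD9:12. It fell by 0.43 ± 0.14 (adjusted p = 0.0412), and the call was lost under 7 of the 22 omissions, with a difference of -0.28 without arsenic GD8:15 replicate 3.

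Members called in the control arm had arsenic-arm values as follows. From GD8:15 to GD9:00 Fgfr1 had 0.27 ± 0.14 (limma adjusted p = 0.304, against 0.79 in the control arm), Wnt2b -0.82 ± 0.27 (adjusted p = 0.0941) and Bmp6 -0.37 ± 0.10 (adjusted p = 0.0508). Bmp8b had -0.55 ± 0.33, Smad6 -0.25 ± 0.11 and Tgfb1 -0.11 ± 0.079 (adjusted p = 0.405, 0.224 and 0.511). From GD9:00 to GD9:12 Wnt4 had 0.39 ± 0.11 (adjusted p = 0.054) and Fzd2 -0.70 ± 0.26 (adjusted p = 0.167). Fgfr1 had -0.25 ± 0.14, Fzd3 -0.17 ± 0.18 and Bmp7 -0.29 ± 0.20 in that step (adjusted p = 0.378, 0.753 and 0.543). Between GD8:15 and GD9:12 Sfrp1 had 0.23 ± 0.25 (adjusted p = 0.577, against 0.95 in the control arm), Fgf10 0.42 ± 0.20, Sfrp5 -0.21 ± 0.073 and Bmp7 -0.39 ± 0.19 (adjusted p = 0.162, 0.0651 and 0.171). All of these had the sign of the control arm, and apart from Fgf15 and the long Fzd2 difference none was called; whether a step differs between the arms is covered only by the F test of the arsenic differences. Over the 44 genes the 2 arms' stage differences had the same sign for 26 genes from GD8:15 to GD9:00, 27 from GD9:00 to GD9:12 and 34 from GD8:15 to GD9:12. Their Pearson correlations across genes, which are not independent replicates, were 0.437, 0.603 and 0.722, where all probes gave 0.601, 0.622 and 0.769. Code series C and D occurred in both arms and A and B in the control arm alone, and series overlapped with stage in both arms.

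**Figure D2:**
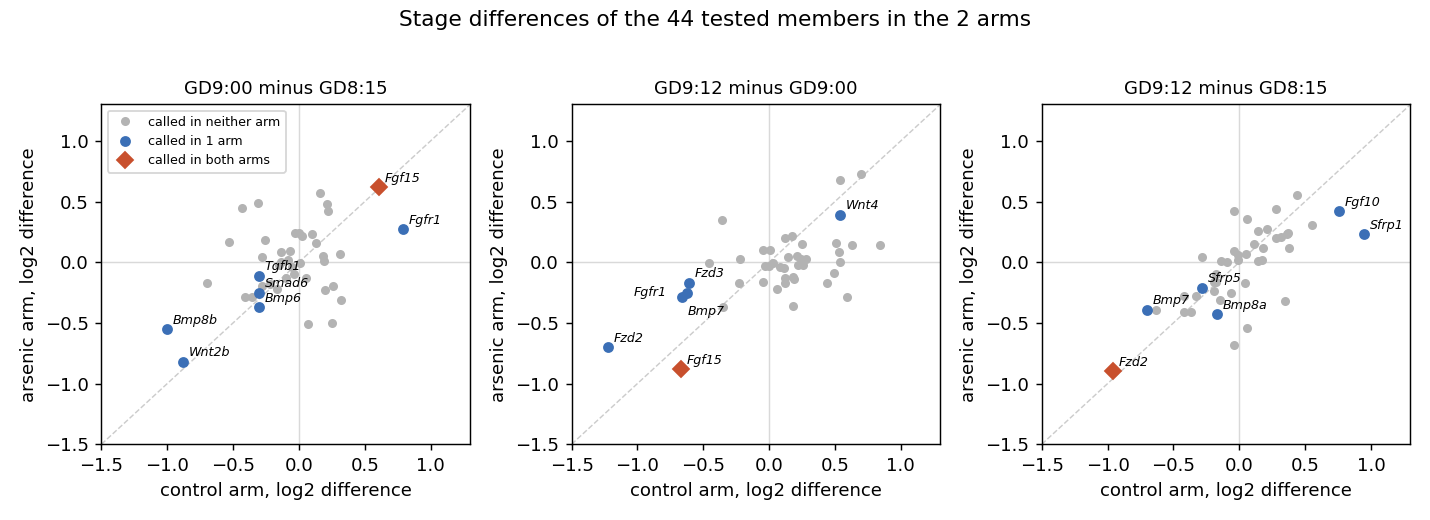
Stage differences (log2) of the 44 tested genes in the control arm (x axis) against the arsenic arm (y axis) for the 3 pairs of stages; points are genes, the dashed line marks equal differences, and colours show calls by limma at an adjusted p under 0.05. Fgf15 is called in both arms in the first and second panels, and Fzd2 in the third.

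The second comparison, arsenic against control within each stage, is the study's question of how arsenate acted on the closing neural tube. None of the 44 genes was called at any stage: limma called 0 of 44 at GD8:15, 0 of 44 at GD9:00 and 0 of 44 at GD9:12, as it called 0 of all 7833 probes at each. At an unadjusted p under 0.05 there were 1 of 44 at GD8:15 (2.27%, against 7.29% of all probes), 8 of 44 at GD9:00 (18.2% against 12.6%) and 0 of 44 at GD9:12 (0% against 1.28%). The median SE of an arsenic difference over these genes was 0.17 at GD8:15. The count of 0 does not show that the genes did not respond. The 95% interval of the Fzd2 difference, for example, ran from -0.89 to 0.21 at GD9:00 and from -0.36 to 0.73 at GD9:12.

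**Figure D3:**
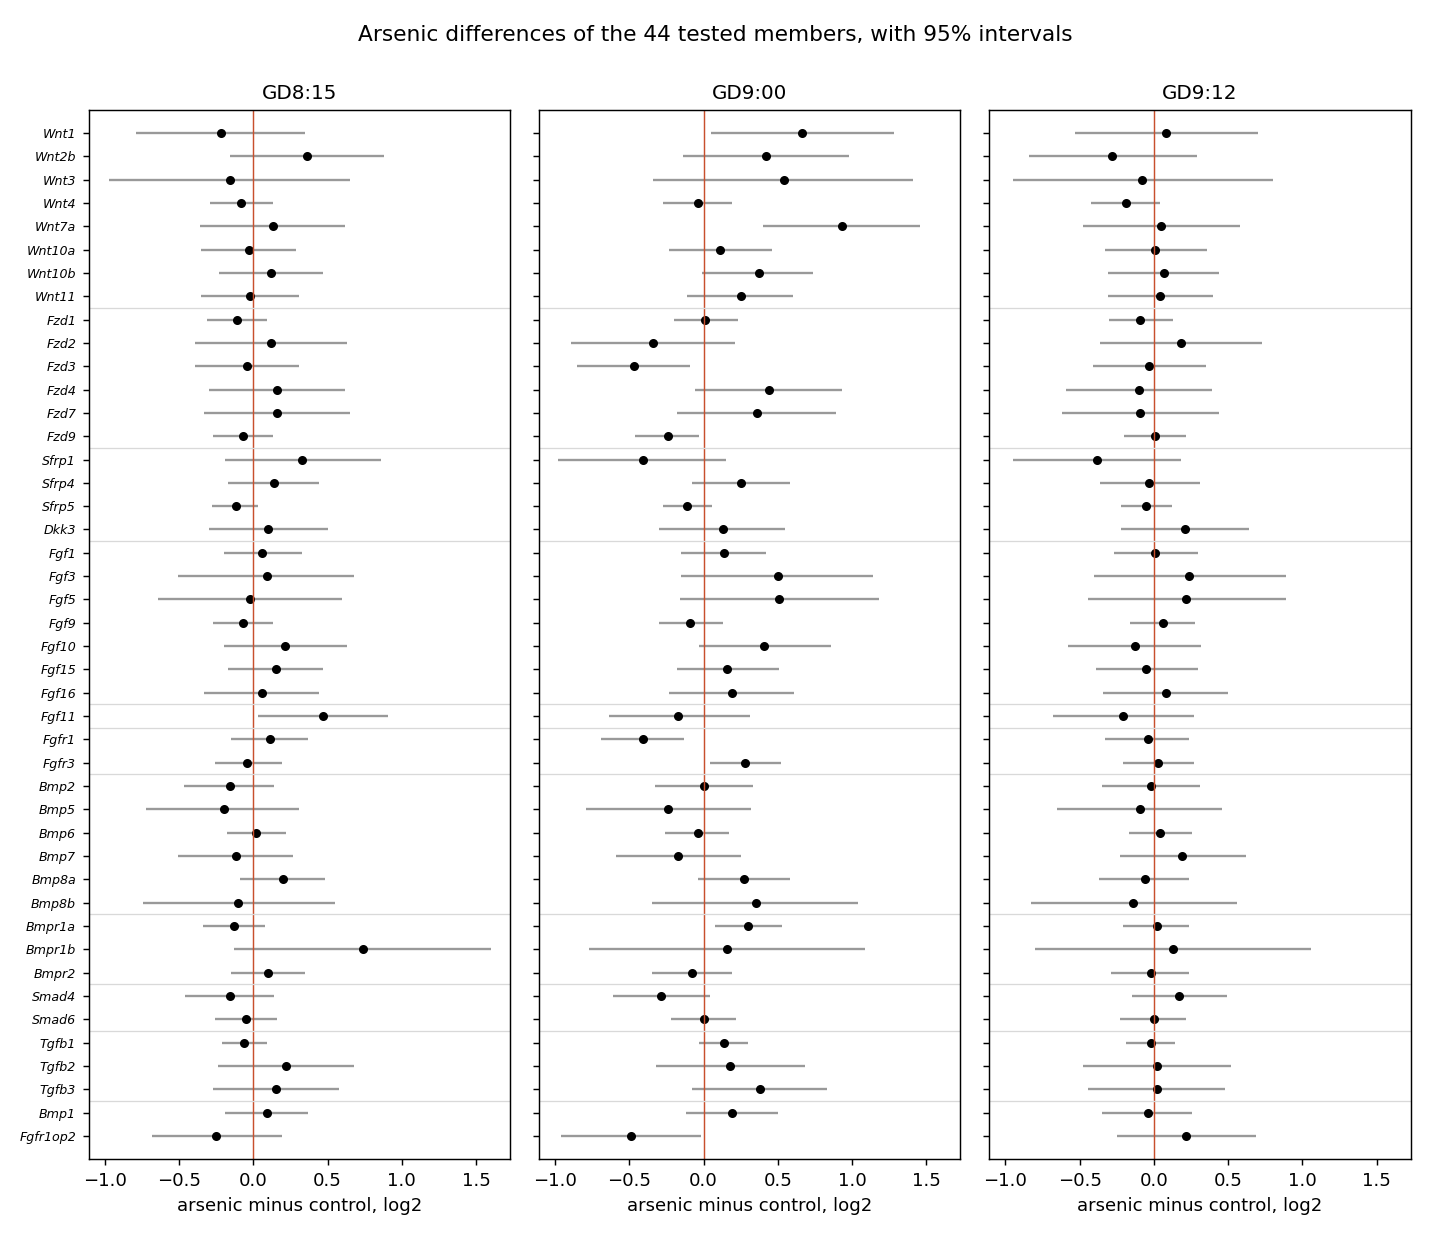
Arsenic minus control (log2) at each stage for the 44 tested genes, grouped by role (Wnt ligands, Frizzled receptors, Wnt antagonists, Fgf ligands, Fgf11, Fgf receptors, Bmp ligands, Bmp receptors, Smads, Tgfb ligands, others); points are limma estimates and bars 95% intervals. Wnt7a at GD9:00 has the largest difference that keeps clear of 0 (0.40 to 1.46), and at GD9:12 all intervals include 0.

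At GD8:15 the median difference of the 44 genes was 0.04, against 0.00 for all probes, with 23 above 0 and 21 below. The arms did not overlap for Fgfr1op2 alone of these genes (-0.25 ± 0.21), with arsenic below, as for 1.93% of all probes. Fgf11, a homologous factor that stays inside the cell, had the lowest p. It read 8.72, 8.53, 9.47 and 8.67 on the arsenic arrays and 7.67, 8.76, 8.55 and 8.54 on the controls. The arms overlapped, and the difference of 0.47 ± 0.21 had a limma adjusted p of 0.643. Without control GD8:15 replicate 1, the array at 7.67, it was 0.23. Bmpr1b, a type I Bmp receptor, had the largest difference, 0.74 ± 0.41 (adjusted p = 0.792). Its arsenic arrays read 8.86, 8.81, 11.09 and 8.83 against 8.73, 8.82, 8.45 and 8.65, so that 1 array, arsenic replicate 3, set the difference, which was 0.17 without it.

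At GD9:00 the median difference was 0.15, against 0.01 for all probes, and 29 of 44 were above 0. The 8 genes with an unadjusted p under 0.05 were Wnt7a, Wnt1, Fgfr3 and Bmpr1a on the higher side and Fgfr1, Fzd3, Fzd9 and Fgfr1op2 on the lower, where 4.56% and 8.02% of all probes lay. For each of them the arms overlapped. Wnt1 was the fourth on its side and is named although the rule of 3 in each direction did not choose it. The lowest limma adjusted p among them was 0.243. The arms did not overlap for Bmp8a (0.27 ± 0.15) and Tgfb3 (0.38 ± 0.22), with arsenic above, as for 2.41% of all probes. The lowest Tgfb3 value, 6.96 on control GD9:00 replicate 2, lay in a low run. With arsenic below, 0 of 44 genes and 566 of all 7833 probes did not overlap.

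Wnt7a, a ligand expressed in the neural tube, read 8.85, 8.55 and 9.36 on the arsenic arrays and 7.52, 8.78, 8.06 and 7.60 on the controls. Of the controls, replicate 2 lay among the arsenic arrays and the others below them. The difference was 0.93 ± 0.25, or 1.91-fold (limma unadjusted p = 0.00163, adjusted p = 0.243). Without control GD9:00 replicate 2 it was 1.19 and called (adjusted p = 0.0124), and without arsenic GD9:00 replicate 3 it was 0.72 (adjusted p = 1). At GD8:15 the control arrays of Wnt7a read 8.26 to 8.34 and at GD9:12 8.54 to 8.65, so that the controls were lowest and most widely spread at GD9:00.

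The 4 genes with higher readings had neighbouring probe numbers, between 9501 and 9634, and all lay in low runs on control GD9:00 replicates 3 and 4. With the values in low runs masked, an alternative chosen after seeing the data, the differences were 0.77 for Wnt7a (limma adjusted p = 0.316), 0.12 for Bmpr1a (adjusted p = 0.642, from 0.30 ± 0.11) and 0.10 for Fgfr3 (adjusted p = 0.766, from 0.28 ± 0.12). Wnt1, expressed at the midbrain and hindbrain border and dorsal midline, had 0.66 ± 0.29 with all values (limma adjusted p = 0.366). Its masked difference is not given here. Masking left these genes only control GD9:00 replicates 1 and 2, which read 7.52 and 8.78 for Wnt7a and 7.77 and 9.45 for Wnt1. Over the 44 genes, 19 lay in a low run on at least 1 control GD9:00 array and 0 did on an arsenic GD9:00 array. Marker lists also read differently in the 2 arms. The mean of the heart and muscle list was 8.46 to 8.98 on the arsenic arrays and 8.06 to 8.75 on the controls at GD9:00, where 9 of its 9 tested genes had a difference above 0 (median 0.36; 1 at an unadjusted p under 0.05). At GD8:15 it was 8.05 to 8.43 against 8.58 to 8.87, and 5 of 9 genes were lower at an unadjusted p under 0.05 (median -0.31). Of these markers Tnnt2, Myh6, Myh7 and Tnnc1 did not pass the filter on dim probes. The neural list had medians of -0.06 and -0.18 at GD8:15 and GD9:00, with 9 of its 12 genes below 0 at each. At each of these stages 2 of the 12 were lower at a limma unadjusted p under 0.05 (16.7%). Of all probes 7.29% at GD8:15 and 12.6% at GD9:00 had such a p in either direction. The part of the low runs and of these lists in the median of 0.15 was not tested.

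**Figure D4:**
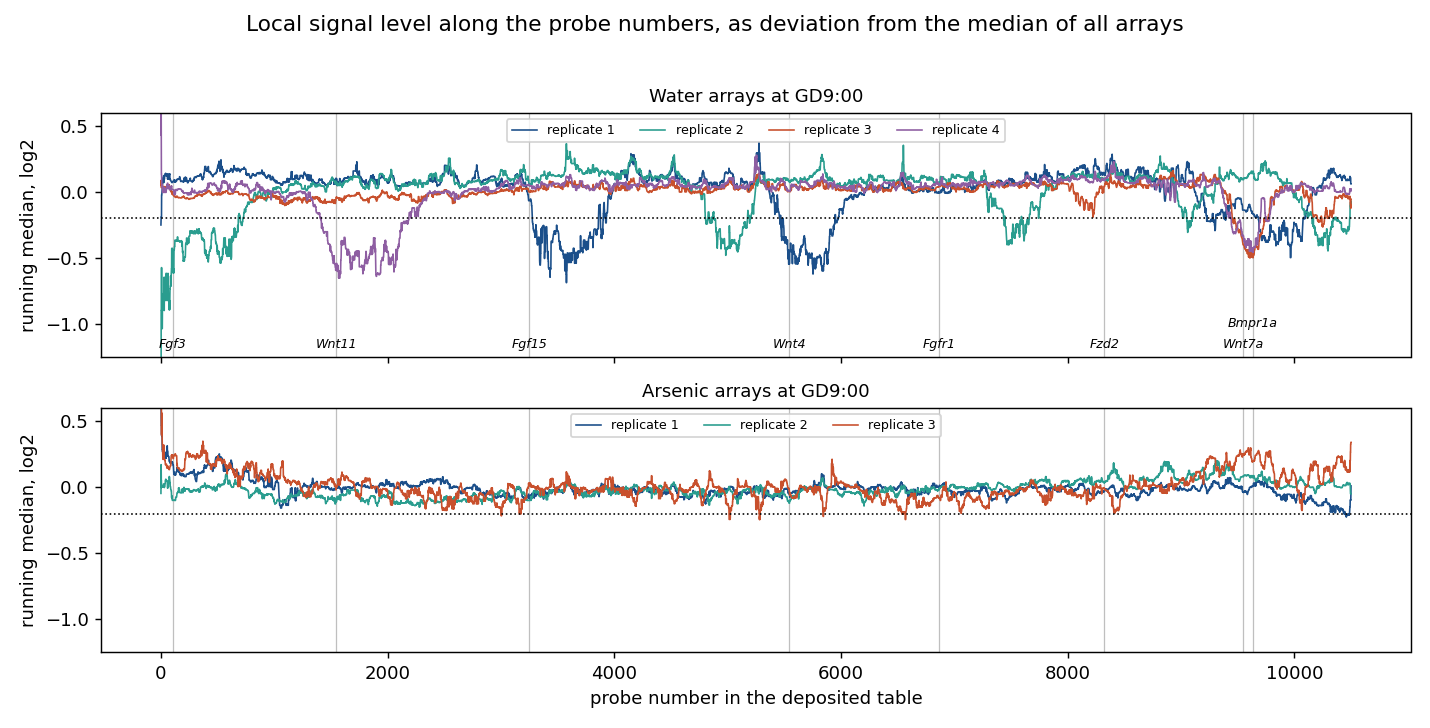
Running median over 51 neighbouring probes of each array's deviation from the median of all arrays (y axis, log2) against probe number (x axis), for the 4 control (top) and 3 arsenic (bottom) GD9:00 arrays; the dotted line marks -0.2 and grey lines mark the probes of 8 genes. Wnt7a and Bmpr1a lie where control replicates 3 and 4 dip together, Wnt4 where replicate 1 dips, Fgf15 at the edge of another dip of replicate 1, and Fgfr1 and Fzd2 outside the dips.

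Of the genes with lower readings at GD9:00, Fgfr1 read 7.88, 7.70 and 7.42 on the arsenic arrays and 7.84, 8.03, 8.16 and 8.27 on the controls. Of the arsenic arrays 2 lay below all controls and 1 did not. The difference was -0.41 ± 0.14 (limma adjusted p = 0.275), and 0.00 under the authors' scaling, where the median of all probes moved by 0.43. Fzd3 read 7.69, 8.05 and 7.09 against 8.05, 8.24, 8.10 and 7.93, a difference of -0.47 ± 0.18 (adjusted p = 0.33). It was -0.21 without arsenic GD9:00 replicate 3 and -0.01 under the authors' scaling. Fzd9, a receptor of the nervous system, had -0.24 ± 0.10 (adjusted p = 0.353), which became -0.14 without control GD9:00 replicate 1 and 0.41 under the authors' scaling. Fgfr1op2 had -0.49 ± 0.22 (adjusted p = 0.375).

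**Figure D5:**
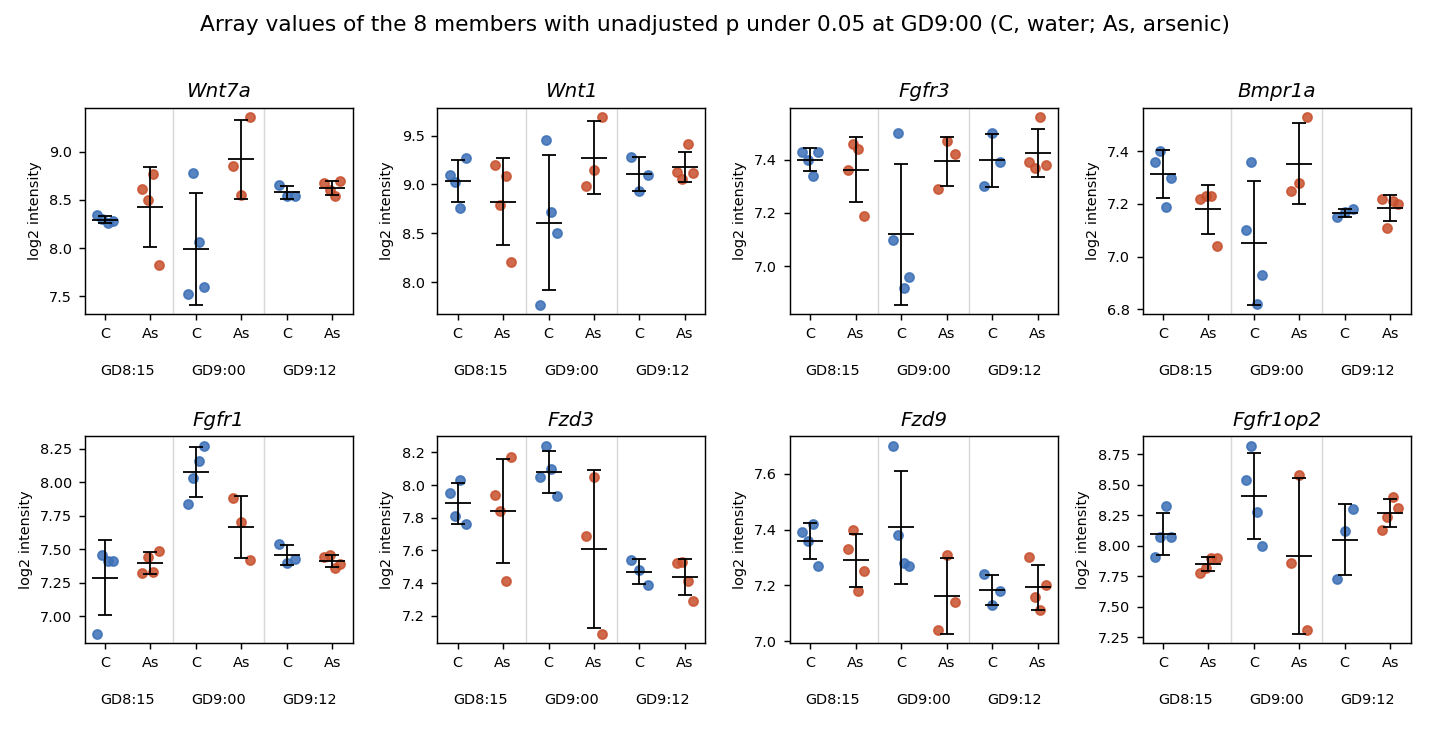
Log2 intensity on every array for the 8 genes with an unadjusted p under 0.05 between the arms at GD9:00, by stage and arm (C, water; As, arsenic); points are arrays and bars the mean and SD of 3 or 4 arrays. In each panel the GD9:00 arrays of the arms overlap, and none of the 8 was called.

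At GD9:12 the 44 differences lay between -0.38 and 0.24 with a median of 0.00, and the lowest limma adjusted p was 1. Sfrp1 had the lowest difference. It read 8.61, 8.44, 7.92 and 7.84 on the arsenic arrays and 8.62, 8.69 and 8.44 on the controls, a difference of -0.38 ± 0.27 with overlapping arms. Wnt4 read 7.53, 7.65, 7.53 and 7.53 on the arsenic arrays and 7.77, 7.72 and 7.74 on the controls. The arms of Wnt4 did not overlap, as for 2.83% of all probes with arsenic below, and the difference was -0.19 ± 0.11 (limma adjusted p = 1). The arms did not overlap for Fzd2 (0.18 ± 0.26) and Bmp7 (0.19 ± 0.20) either, with arsenic above, as for 2.17% of all probes. Smad4 (0.17 ± 0.15), Dkk3 (0.21 ± 0.20) and Fgfr1op2 (0.22 ± 0.22) had the lowest p among the higher readings and Wnt2b (-0.28 ± 0.27) was next on the lower side, all with an adjusted p of 1. Without control GD9:12 replicate 1 the first 3 were 0.05, 0.03 and 0.06, and without arsenic GD9:12 replicate 2 Wnt2b was -0.13.

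Averaged over the stages, 0 of 44 genes were called by limma and 1 had an unadjusted p under 0.05 (2.27%, against 5.72% of all probes). This was Wnt7a, with an average difference of 0.37 ± 0.14 (adjusted p = 0.865). An F test of whether the arsenic difference changed between stages called 0 of 44, with 3 at an unadjusted p under 0.05 (6.82%, against 6.46% of all probes). These were Bmpr1a, Fgfr1 and Wnt7a, with limma adjusted p of 0.731, 0.744 and 0.759.

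Other genes of the same pathways were taken from lists of 128 symbols, of which 92 were on the array and 81 were tested. In the arsenic comparisons limma called 0 of 81 at each stage, with 3, 9 and 1 of them at an unadjusted p under 0.05 at GD8:15, GD9:00 and GD9:12. These are 3.7%, 11.1% and 1.23%, where 7.29%, 12.6% and 1.28% of all probes had such a p. The listed genes of lowest p at GD9:00 were Dvl1 and Dvl2, which relay Wnt signals from Frizzled receptors (-0.34 ± 0.12 and -0.21 ± 0.075, adjusted p = 0.283 and 0.297), and the ligand Gdf5 (0.30 ± 0.12, adjusted p = 0.335). Between control stages 15 of 81 were called from GD8:15 to GD9:00 (18.5%, where 15% of all probes were; 9 higher, 6 lower), 5 from GD9:00 to GD9:12 (6.17%, below the 11.3% of all probes) and 6 from GD8:15 to GD9:12 (7.41%, where 7.71% of all probes were).

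By pathway, 5 of 32 Wnt, 3 of 16 Fgf and 7 of 33 Bmp and Tgfb genes were called from GD8:15 to GD9:00, or 15.6%, 18.8% and 21.2% where 15% of all probes were called. The 3 of lowest p in this step rose: Dvl1 by 0.81 ± 0.11 (limma adjusted p = 0.00013), the Groucho corepressor Tle3 by 0.46 ± 0.09 (adjusted p = 0.003) and Dvl2 by 0.33 ± 0.07 (adjusted p = 0.00459). From GD8:15 to GD9:12 Dvl1 (0.64 ± 0.12, adjusted p = 0.00265), Spry1, an antagonist of Fgf signalling (1.99 ± 0.37, adjusted p = 0.00334), and the secreted Wnt agonist Rspo3 (0.98 ± 0.24, adjusted p = 0.0168) rose. From GD9:00 to GD9:12 Map2k1, a kinase downstream of Fgf receptors, fell by 1.44 ± 0.38 (adjusted p = 0.0212), and Ccnd1, a cyclin that is a Wnt target (0.69 ± 0.18, adjusted p = 0.022), and Ltbp4, which binds latent Tgfb (1.16 ± 0.32, adjusted p = 0.0231), rose.

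Each of the 69 genes rests on 1 probe. For the pathway and marker lists the brightest probe of each gene was used where the array had several. For the 92 genes of the array that had 2 tested probes, the correlation of one probe with the other over the arrays had a median of 0.0489. In 42 of these genes it was below 0. A value here stands for its probe, and its match to the gene was not checked by a second probe.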

How the data were processed

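Total RNA from dissected anterior neural tubes was amplified, labelled and hybridised to CodeLink UniSet 10K arrays, per the labels' protocols. The authors' deposited table holds 1 intensity per probe and array on a linear scale. Array means were the same within each stage, so the values had been scaled by stage; the scanner software, background correction and normalisation are not given in the sources used here. Placeholders of 1 or 2 (838 values) were set to missing, and the rest were log2 transformed and quantile normalised. Depth has no meaning for arrays; their number limits the precision.

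Probes measured on 2 or more arrays per group, with a mean above the lowest 25%, were tested with limma 3.58.1 in R 4.3.3, on 1 model of 6 groups over 22 arrays. P-values were adjusted by Benjamini-Hochberg over all 7833 tested probes, with a threshold of 0.05. Gene names came from the platform annotation and RefSeq. Genes were named where called, where they had the 3 lowest p-values in a direction of an arsenic or control stage comparison, or as the brightest of their role. The members and lists were chosen with earlier results of these data known. Alternatives covered scaling, filter, placeholders, low runs, array weights, moderation, title code series and each array left out. Code was tested on simulated data. Figures were drawn with matplotlib 3.10.9 in Python 3.11.15.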

Additional observations from a re-analysis of the deposited data

Results flagged for a closer look

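Among the 120 groups of 4 arrays examined (30 named genes), 13 held 1 array far from the other 3, where chance gives about 1 in 20 groups. On control GD9:00 arrays, Wnt3 read 8.52 and Wnt4 6.85 on replicate 1 (nearest other arrays 10.28 and 7.31), Fgf10 read 6.99 on replicate 2 (7.56), and Wnt10b read 6.95 and Bmp8b 7.01 on replicate 4 (7.45 and 7.78). All 5 of these values lay in low runs. Bmpr2 read 7.68 on control GD9:00 replicate 3 (7.55). Fgfr1 read 6.87 on control GD8:15 replicate 1 (7.41). On the arsenic GD8:15 arrays, Bmpr1b read 11.09 and Fgf5 9.67 on replicate 3 (8.86 and 8.66), and Bmpr1a read 7.04 on replicate 4 (7.22). On the arsenic GD9:12 arrays, Wnt4 read 7.65 on replicate 2 (7.53), Fgfr3 7.56 on replicate 3 (7.39) and Wnt10b 7.99 on replicate 4 (7.50).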

How the results depend on the processing

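Counts of these genes called by limma moved as follows, and unless said otherwise the cause was not tested. The share of all probes called under each setting is not set beside them. The counts therefore do not tell these genes apart from other probes. With the authors' scaling kept, the control arm had 18 called from GD8:15 to GD9:00 and 34 from GD9:00 to GD9:12, and the arsenic arm 0 and 5. At GD9:00 the median deposited intensity was 123 to 131 on the control arrays and 152 to 199 on the arsenic arrays. That scaling thus shifts all probes together between stages, and between the arms at GD9:00. It also turned the sign of Sfrp5 (0.14) and Fzd1 (0.16) for arsenic at GD8:15, Fzd9 at GD9:00 (0.41), the averages of Sfrp5 (0.20), Fzd3 (0.06) and Fzd9 (0.22), and control stage differences of Bmpr2 into GD9:00 (-0.35) and of Fgf15 (0.03), Bmp7 (0.06), Fgfr1 (0.02) and Fzd3 (0.03) after it. Group medians of the authors' values gave 0.13 for Bmp7, 0.03 for Fgfr1 and 0.02 for Fzd3 in that last step. Without the filter the arsenic arm had 2 from GD8:15 to GD9:00 and 4 from GD8:15 to GD9:12. Masking low runs, below -0.5 or below -0.2 (the latter chosen after seeing the data), gave 2 in each of its single steps. Array weights gave 2 for arsenic at GD9:00 (Wnt7a and Bmpr1a), 13, 12 and 13 for the control stage comparisons and 4, 8 and 7 for the arsenic arm. Trended and robust moderation gave 2 for the arsenic arm from GD9:00 to GD9:12 and 4 from GD8:15 to GD9:12. The title code series as a block left 0 in all 4 comparisons with GD8:15 and turned Bmpr2 into GD9:00 to -0.03. With series D alone at GD8:15 the control arm had 4 into GD9:00 and 0 into GD9:12. With each array left out in turn, counts ran from 0 to 1 for arsenic at GD9:00 (1, Wnt7a, without control GD9:00 replicate 2) and stayed 0 for the other arsenic comparisons and the F test. They ran from 3 to 9, 3 to 8 and 0 to 6 in the control arm (into GD9:00, from it to GD9:12, and GD8:15 to GD9:12) and 0 to 3, 1 to 2 and 0 to 4 in the arsenic arm. No paired analysis was possible because the labels give the groups no shared replicate numbers. With 3 or 4 arrays a group and 1 probe a gene, small differences could not be resolved.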
